A study of Homo sapiens with 24 samples.

Results

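The expression of 10 genes was followed by RNA sequencing of 4 human cancer cell lines treated with Ocoxin: DUSP4, DUSP5, DUSP6, SPRY2, SPRY4, SPRED1, ETV4, ETV5, PHLDA1 and FOSL1. They are outputs and feedback inhibitors of ERK signaling and were chosen by symbol, with earlier results of these data known. How many of them were called, beside the share of all genes, is therefore a description and not independent support. All 10 of 10 were found among the 58051 genes of the count tables. Each cell line had 3 control libraries and 3 libraries of cells kept with Ocoxin for 48 h, which makes 24 libraries. The lines were SW620 for colon adenocarcinoma (COAD), BxPC-3 for pancreatic adenocarcinoma (PAAD), LNCaP for prostate adenocarcinoma (PRAD) and HCC-70 for triple negative breast cancer (TNBC), so each cancer name stands for 1 cell line. Ocoxin is an oral nutritional supplement with green tea, licorice and cinnamon extracts, vitamins, minerals and amino acids. Its dilution was 700-fold in COAD and TNBC, 500-fold in PAAD and 50-fold in PRAD, set for each line from its viability curve, and all cells, controls included, were in medium with 1% serum. The labels give these dilutions for the controls too, and the letter in each title decided the group. Nothing in the labels says whether the 3 libraries of a group came from separate cultures, so the p-values measure the spread between these libraries, which may be technical.

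When a growth factor binds its receptor tyrosine kinase, RAS, RAF and MEK are switched on in turn and ERK is phosphorylated. Active ERK drives the transcription of its own brakes. The DUSP phosphatases remove the phosphates from ERK, the Sprouty and SPRED proteins restrain the steps between receptor and RAF, and the ETS factors ETV4 and ETV5, PHLDA1 and the AP-1 subunit FOSL1 belong to the output. Levels of these transcripts are commonly read as a measure of ERK pathway activity, and activating RAS or RAF mutations are frequent in colon and pancreatic cancer.

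The genes lie apart on the genome, in the hg38 coordinates of the count tables. DUSP4 (ENSG00000120875) lies at chr8:29333064-29350668, DUSP5 (ENSG00000138166) at chr10:110497838-110511544 and DUSP6 (ENSG00000139318) at chr12:89347232-89353271. SPRY2 (ENSG00000136158) lies at chr13:80335976-80340951, SPRY4 (ENSG00000187678) at chr5:142310427-142326455 and SPRED1 (ENSG00000166068) at chr15:38252326-38357249. ETV4 (ENSG00000175832) lies at chr17:43527844-43579620, ETV5 (ENSG00000244405) at chr3:186046308-186110318, PHLDA1 (ENSG00000139289) at chr12:76025447-76033932 and FOSL1 (ENSG00000175592) at chr11:65892049-65900573. Of the exonic bases of DUSP6, 40.5% are shared with the gene ENSG00000274021, and of those of PHLDA1, 16.5% are shared with PHLDA1-AS1 and PHLDA1-DT. Under the options in the table headers a read that touches both genes is counted for neither, so levels of DUSP6 and PHLDA1 per kilobase may be too low. ETV4 shares 1.89% of its exonic bases with DHX8 and ETV5 2.83% with DGKG, and the other 6 genes share none.

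The libraries held 25160757 to 34397801 counts in COAD, 31101178 to 34231106 in PAAD, 36863490 to 39009959 in TNBC and 9063968 to 9520969 in PRAD. PRAD stands in a count table of its own that was counted with other options, and its levels are given apart. In control cells, 6 of 6 prostate markers reached 1 RPKM (counts scaled by exonic length and by TMM library size) in PRAD, and 1 to 3 of 6 in the other lines. In COAD, 3 of 6 colon markers did, with CDX1, LGALS4 and GPA33 under that level, and in the other lines 0 or 1. The pancreatic ductal and basal breast markers did not tell PAAD from TNBC. All 6 of both lists reached 1 RPKM in PAAD and 5 of 6 of both did in TNBC, and the summed level of the basal breast markers was higher in PAAD (1696 to 1948 RPKM) than in TNBC (652 to 753 RPKM). ESR1 and PGR were under 1 RPKM in TNBC, while ERBB2 was above it. The same held in each of the other lines, so these receptors did not tell TNBC from them.

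Promoter sequence from RefSeq (GRCh38.p14) was found for 5 of 10 genes, namely SPRY4, PHLDA1, DUSP6, SPRY2 and SPRED1, as windows of 250 bases before to 50 after each start. In DUSP6, PHLDA1 and SPRED1 all 250 upstream bases lie within exons of the same gene in the annotation of the count tables, as do 170 of those of SPRY4, so these windows precede a start inside the gene. Those of SPRY2 lie outside its exons. The letters CGGAAG, a core bound by ETS factors such as ETV4 and ETV5, occurred on either strand in 19.5% of all 35116 promoter windows. Among the 5 genes they occurred once in DUSP6, with the first base 62 bases before the start and on the opposite strand, and once in PHLDA1, 47 bases before the start on the same strand. The letters TGANTCA, an AP-1 site of the kind that FOSL1 binds, occurred in 7.71% of all windows and in none of these 5 genes, and neither motif overlaps the other. The stretches around both matches are given because they are the only exact matches to CGGAAG in these windows, with the match in capitals (CTTCCG is CGGAAG read from the other strand). They lie on the minus strand at chr12:89352546-89352575 and chr12:76031806-76031835. The 250 bases before the most upstream start of SPRY2, on the minus strand at chr13:80341127-80341376, are given because SPRY2, like FOSL1, rose in one line and fell in another. They hold neither of the strings searched, and shorter or altered forms of the ETS core were not searched.
DUSP6: cggcaacagcccCTTCCGcagcacgctcat
PHLDA1: ggggaacgagcgCGGAAGcaagtgggcggc
SPRY2: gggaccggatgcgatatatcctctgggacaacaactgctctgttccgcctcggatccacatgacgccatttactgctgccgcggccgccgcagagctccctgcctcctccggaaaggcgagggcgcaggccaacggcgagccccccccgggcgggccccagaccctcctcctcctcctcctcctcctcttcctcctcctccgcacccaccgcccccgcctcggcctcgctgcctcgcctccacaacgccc

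Before treatment most of the ERK output genes were lower in TNBC than in COAD and PAAD, with DUSP5 as an exception and SPRY2 close between TNBC and PAAD. In the 9 control libraries of these lines, 10 of 10 genes were higher in PAAD than in TNBC, and 9 of 10 were higher in COAD than in TNBC, with DUSP5 lower in COAD. Between COAD and PAAD, all 3 phosphatases and FOSL1 were higher in PAAD, both Sprouty genes, both ETS factors and PHLDA1 were higher in COAD, and SPRED1 was not called. These calls used edgeR's quasi-likelihood test, two-sided, at a Benjamini-Hochberg adjusted p under 0.05. Most genes differ between cell lines of different origin: 78.6% of the 19930 genes tested were called between COAD and PAAD, 82.8% between COAD and TNBC and 77.1% between PAAD and TNBC. By direction, 39.7% were higher and 37.4% lower in PAAD than in TNBC, 42.4% were higher and 40.5% lower in COAD than in TNBC, and 40.2% were higher and 38.4% lower in COAD than in PAAD. How many of the 10 genes were called is therefore near the share of all genes. Direction and call of each gene were kept when each library was left out.

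**Figure D1:**
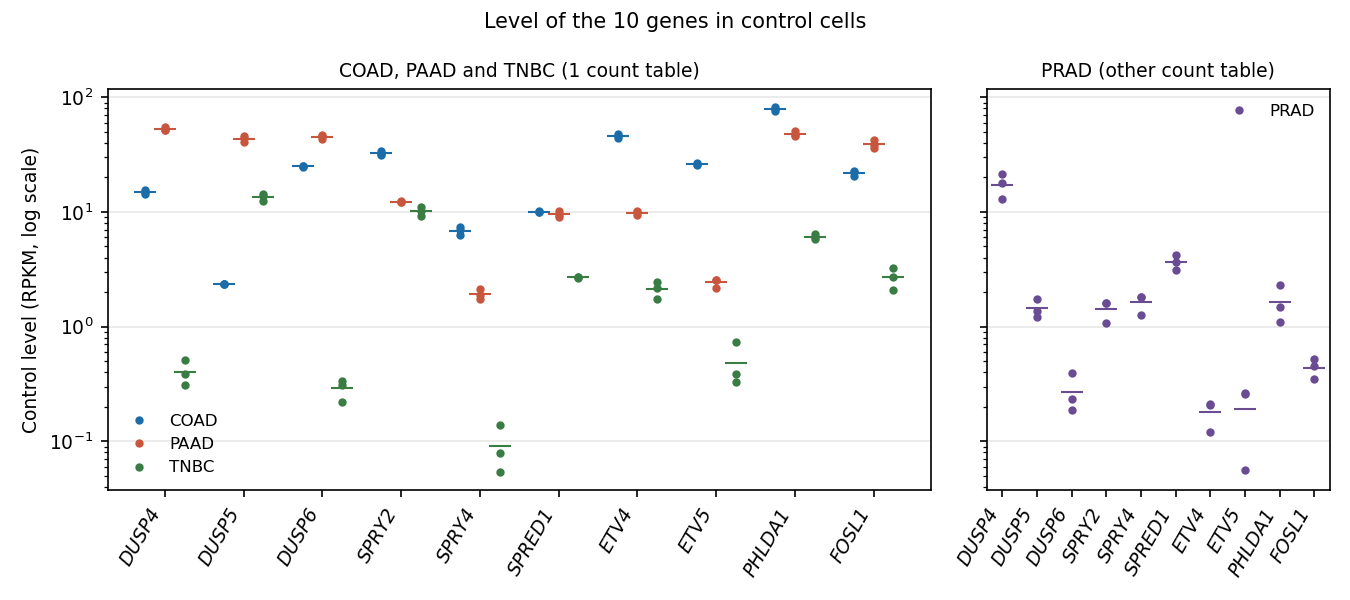
Control level of the 10 genes in RPKM on a log scale, with 1 point for each of 3 libraries and a bar for their mean; PRAD has its own panel because its table was counted with other options. The TNBC points of DUSP4, DUSP6, SPRY4 and ETV5 lie under 1 RPKM, and all COAD and PAAD points lie above it.

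Among the phosphatases, DUSP4, a nuclear enzyme that acts on ERK and other MAP kinases, stood at 52.0, 55.1 and 51.9 RPKM in the PAAD controls, where it was the highest of the 10 genes. Its COAD controls stood at 14.2, 15.4 and 14.9 RPKM and its TNBC controls at 0.384, 0.307 and 0.509 RPKM. No 2 lines overlapped, and the level in PAAD was 7.05 ± 0.10 (log2, SE) above that in TNBC (adjusted p = 9.08e-23). DUSP6, the cytoplasmic phosphatase that is specific for ERK, followed the same order with 45.3 ± 1.77 RPKM (SD, n = 3) in PAAD, 24.9 ± 0.116 in COAD and 0.290 ± 0.061 in TNBC. The gap of 7.28 ± 0.095 (log2, SE) between PAAD and TNBC for DUSP6 was the widest of the 30 baseline contrasts of these genes.

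DUSP5, the nuclear phosphatase that is specific for ERK, had another order. It stood at 46.4, 43.9 and 40.7 RPKM in PAAD, at 13.9, 14.3 and 12.4 RPKM in TNBC, and at 2.38, 2.37 and 2.34 RPKM in COAD. The level in COAD was the lowest of the 10 genes there, and its log2 difference from TNBC was -2.52 ± 0.083 (SE, adjusted p = 1.40e-17). In TNBC, DUSP5 had the highest level of the 10 genes.

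The Sprouty proteins are adaptors that restrain signaling from receptors to RAS and RAF. SPRY2 stood at 32.6 ± 1.43 RPKM in COAD, 12.3 ± 0.118 in PAAD and 10.2 ± 0.857 in TNBC (SD, n = 3 each). The step from TNBC to PAAD was the smallest called one, 0.27 ± 0.070 (log2, SE, adjusted p = 0.00124). SPRY4 stood at 6.88 ± 0.514 RPKM in COAD, 1.92 ± 0.183 in PAAD and 0.090 ± 0.043 in TNBC, where its 3 controls held 18, 12 and 30 counts. SPRED1, which brings neurofibromin to the membrane to switch RAS off, stood at 10.0 ± 0.077 RPKM in COAD and 9.53 ± 0.627 in PAAD. These neighbours did not differ beyond their spread (0.07 ± 0.061, log2, SE, adjusted p = 0.295), while TNBC lay lower at 2.69 ± 0.033.

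ETV4 and ETV5 are ETS transcription factors of the PEA3 group, induced by ERK. ETV4 stood at 46.0 ± 2.08 RPKM in COAD, 9.79 ± 0.421 in PAAD and 2.13 ± 0.360 in TNBC. ETV5 stood at 26.1 ± 0.482, 2.44 ± 0.223 and 0.485 ± 0.223 RPKM in the same order. The log2 difference between COAD and PAAD was 2.23 ± 0.079 for ETV4 and 3.42 ± 0.16 for ETV5 (SE), the widest of the 5 genes that were higher in COAD than in PAAD.

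PHLDA1, a small protein with a pleckstrin homology-like domain, had the highest level of the 10 genes in COAD with 81.8, 76.3 and 78.5 RPKM. Its PAAD controls stood at 46.4, 46.9 and 50.6 RPKM and its TNBC controls at 6.06, 5.79 and 6.38 RPKM. FOSL1, the AP-1 subunit also named FRA-1, stood at 39.1 ± 3.17 RPKM in PAAD, 21.9 ± 1.13 in COAD and 2.69 ± 0.566 in TNBC. No library of one line reached the range of another for either gene.

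In the PRAD controls, whose levels cannot be set against those of the other table, DUSP4 was the highest of the 10 genes with 12.8, 17.8 and 21.3 RPKM. SPRED1 followed with 3.67 ± 0.542 RPKM. SPRY4, PHLDA1, DUSP5 and SPRY2 lay between 1.43 and 1.64 RPKM on average, within their SDs of each other. FOSL1, DUSP6, ETV5 and ETV4 lay between 0.180 and 0.440 RPKM, and the 3 controls held 7, 7 and 4 counts of ETV4 and 6, 8 and 9 of FOSL1. Both genes were too low to be tested in PRAD.

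With Ocoxin, most of the 10 genes rose in PAAD. In the other lines few or none passed the test in fits that did not use the replicate number. In PAAD, 7 of 10 genes rose and 0 fell, beside 4.72% of the 17280 genes tested that rose and 8.33% called in either direction. In TNBC, 2 of 10 fell and 0 rose, beside 11.3% of 17352 genes that fell and 21% called. In COAD 0 of 10 and in PRAD 0 of the 8 tested were called, beside 2.55% of 17659 and 2.98% of 17070 genes. The median log2 fold change of the 10 genes was 0.37 in PAAD, -0.23 in TNBC and -0.06 in COAD, and -0.03 over the 8 genes in PRAD. Over all genes tested it lay between -0.01 and 0.01 in each line.

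**Figure D2:**
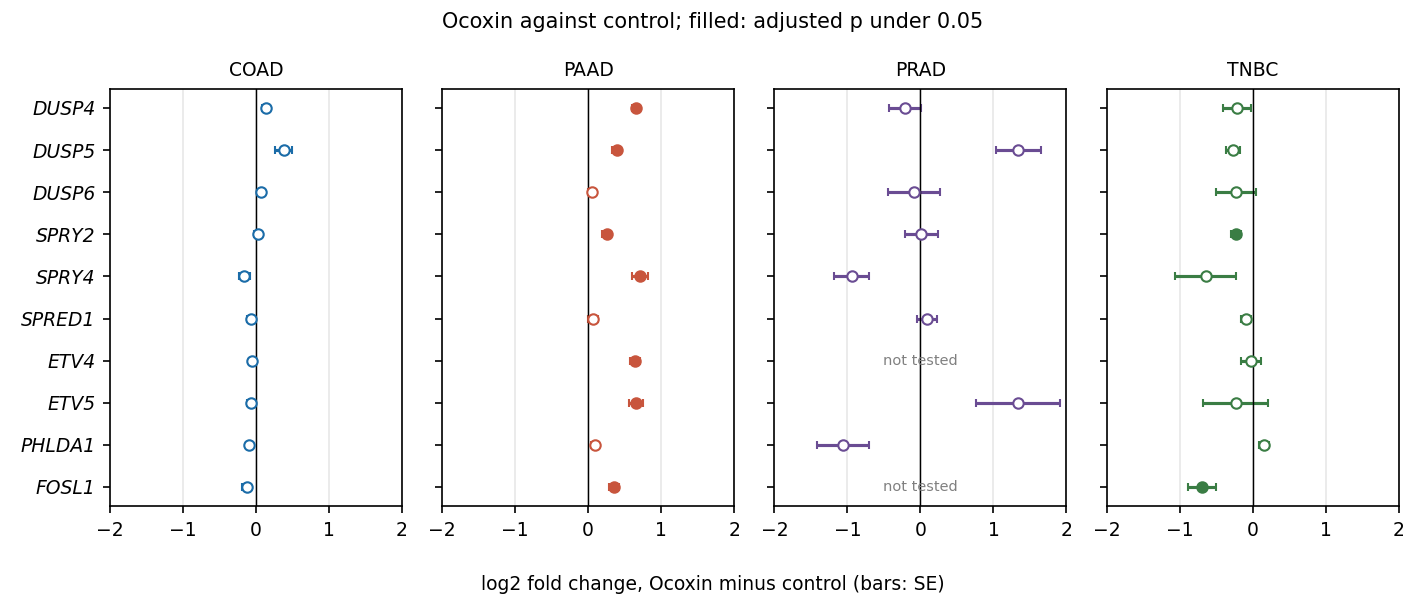
Log2 fold change of each gene, Ocoxin minus control, with its SE, in the 4 cell lines; filled points have an adjusted p under 0.05, and genes too low to be fitted are marked. In PAAD 7 of 10 points are filled and lie right of 0, in TNBC SPRY2 and FOSL1 are filled and lie left of 0, and in COAD and PRAD none is filled. The fits shown have no replicate block.

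PAAD. The phosphatases DUSP4 and DUSP5 rose and DUSP6 did not pass the test. Levels within a line are given in CPM (counts scaled by TMM library size). DUSP4 stood at 352, 375 and 356 CPM in control cells and at 575, 566 and 566 CPM with Ocoxin, so every treated library lay above every control. Its log2 fold change was 0.66 ± 0.051 (SE, adjusted p = 1.05e-06 by edgeR's quasi-likelihood test, as for the other adjusted p-values below). DUSP5 stood at 113, 108 and 101 CPM in control cells and at 143, 139 and 140 CPM with Ocoxin, again without overlap (0.39 ± 0.059, adjusted p = 6.12e-04). DUSP6 stood at 187, 199 and 205 CPM against 201, 209 and 202 CPM, with overlapping groups (0.05 ± 0.055, adjusted p = 0.619).

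Both Sprouty genes rose in PAAD. SPRY4 stood at 9.66, 11.8 and 10.6 CPM in control cells and at 16.3, 16.6 and 19.6 CPM with Ocoxin (0.71 ± 0.11, adjusted p = 5.51e-04), the largest change of the 10 genes in this line. SPRY2 stood at 34.6, 35.5 and 35.1 CPM against 42.5, 41.8 and 41.0 CPM (0.25 ± 0.065, adjusted p = 0.0259). Its groups did not overlap, but the call was lost without control 1, control 2, Ocoxin 1 or Ocoxin 2 and the adjusted p then reached up to 0.115. SPRED1 stood at 73.9 ± 5.36 CPM in control cells and 77.1 ± 4.12 CPM with Ocoxin (SD, n = 3), within the spread (adjusted p = 0.636).

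The ETS factors moved in PAAD by about the same amount as DUSP4. ETV4 stood at 33.4, 34.2 and 31.7 CPM in control cells and at 49.6, 52.3 and 52.8 CPM with Ocoxin (0.64 ± 0.067, adjusted p = 2.00e-05). ETV5 stood at 13.9, 11.9 and 14.04 CPM against 19.6, 20.4 and 22.4 CPM (0.65 ± 0.095, adjusted p = 5.02e-04). For both factors the lowest treated library lay above the highest control. FOSL1 rose from 67.3, 75.5 and 65.0 CPM to 81.6, 90.1 and 93.3 CPM (0.35 ± 0.071, adjusted p = 0.00643), also without overlap. In a fit of all 24 libraries ETV5 lost its call (adjusted p = 0.0727) and the other 6 were called. PHLDA1 stood at 363 ± 19.9 CPM in control cells and 387 ± 9.30 CPM with Ocoxin and did not pass the test (adjusted p = 0.351).

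**Figure D3:**
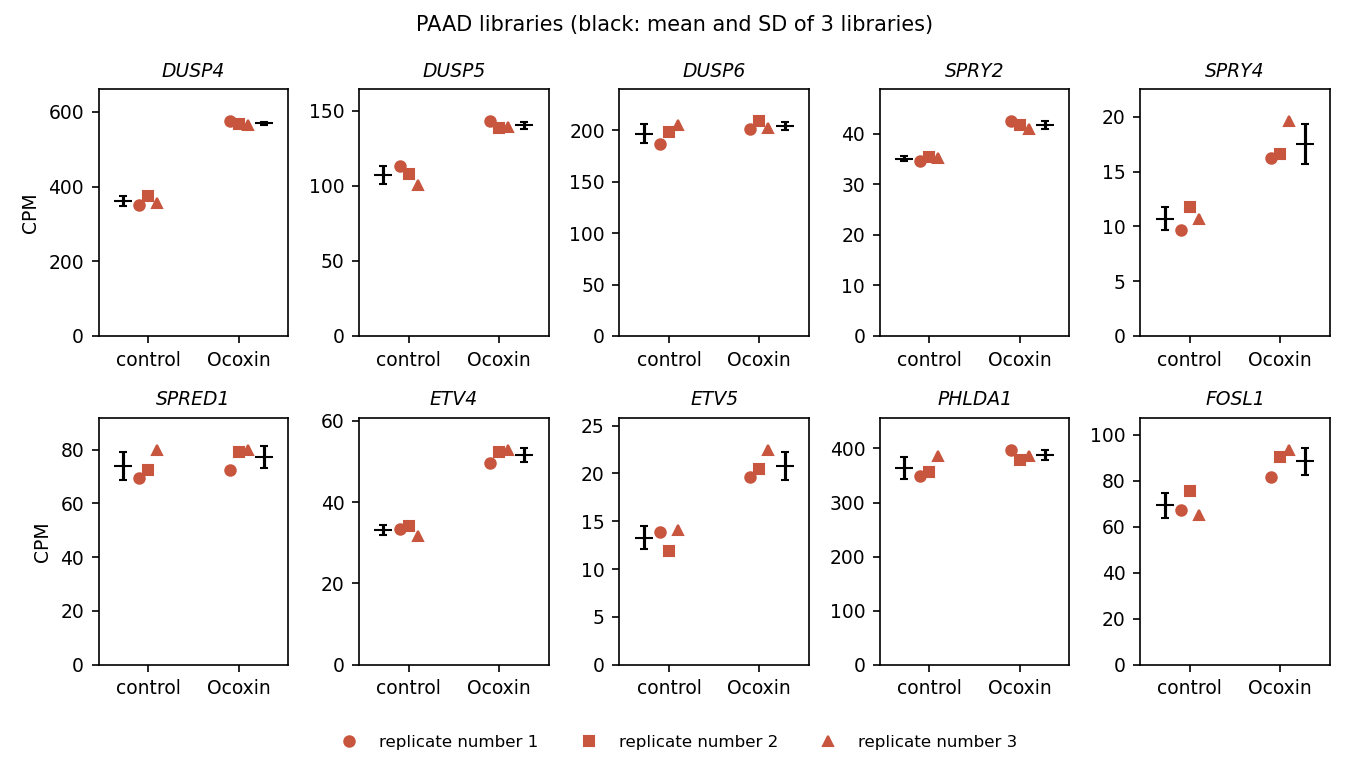
CPM of each gene in the 6 PAAD libraries, with the replicate number as the marker and the mean and SD of 3 libraries in black; each panel has its own axis from 0. The groups are apart for DUSP4, DUSP5, SPRY2, SPRY4, ETV4, ETV5 and FOSL1, and overlap for DUSP6, SPRED1 and PHLDA1.

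TNBC. FOSL1 and SPRY2 fell. FOSL1 stood at 6.02, 5.09 and 3.92 CPM in control cells and at 3.63, 3.34 and 2.35 CPM with Ocoxin (-0.69 ± 0.19, adjusted p = 0.0244). The lowest control lay just above the highest treated library. SPRY2 stood at 30.8, 27.9 and 33.1 CPM against 26.5, 24.3 and 27.5 CPM (-0.23 ± 0.074, adjusted p = 0.0444), also without overlap. Both calls were lost without control 1 or without Ocoxin 2. That of FOSL1 was also lost without control 2, and that of SPRY2 without control 3 or Ocoxin 1, with adjusted p-values of up to 0.115 and 0.174.

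Of the other 8 genes in TNBC, 7 had a log2 fold change under 0 and none passed the test as fitted here. DUSP5, the highest of the 10 per kilobase here, stood at 35.8, 37.0 and 32.1 CPM in control cells and at 32.1, 30.1 and 24.7 CPM with Ocoxin (-0.27 ± 0.093, adjusted p = 0.0606). The call of DUSP5 depended on the settings, since it was made by DESeq2 (adjusted p = 0.0217), with no filter on low counts (adjusted p = 4.71e-04), with length and GC trends removed (adjusted p = 0.0377) and without control 3 or Ocoxin 1. PHLDA1 was the one gene with a positive value, from 48.4, 46.2 and 50.9 CPM to 51.1, 51.5 and 59.6 CPM (0.16 ± 0.065, adjusted p = 0.110). Libraries of equal replicate number deviated together in PAAD and PRAD. In TNBC they did so less clearly, since replicate 2 correlated more highly with another number (0.346) than with its own (0.320). The labels do not state such a pairing. With the replicate number as a block DUSP5 (adjusted p = 5.85e-05) and PHLDA1 (adjusted p = 0.00693) were called as well. This makes 3 lower and 1 higher beside 33.9% of all genes called. ETV4, at 7.59 ± 1.28 CPM in control cells, had a log2 fold change of -0.02, and SPRED1, at 21.99 ± 0.268 CPM, one of -0.09. DUSP4, DUSP6, SPRY4 and ETV5 were at 4.24 CPM or less in every TNBC library, and the SEs of their log2 fold changes were 0.19 to 0.44.

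PRAD. Libraries of this line spread widely for these genes, in step with the replicate number. DUSP5 stood at 4.58, 3.19 and 3.61 CPM in control cells and at 14.1, 7.72 and 6.97 CPM with Ocoxin, without overlap (1.34 ± 0.31, adjusted p = 0.0626). SPRY4 stood at 10.8, 10.7 and 7.54 CPM against 4.92, 6.65 and 3.54 CPM, also without overlap (-0.94 ± 0.24, adjusted p = 0.0816). PHLDA1 stood at 11.9, 8.93 and 18.5 CPM against 4.70, 4.40 and 9.74 CPM (-1.06 ± 0.36, adjusted p = 0.153), and its groups overlapped because the third treated library lay above the second control. At an unadjusted p under 0.05 these 3 of 8 genes were called by edgeR, beside 20.8% of all genes. DESeq2 called the same 3 at an adjusted p under 0.05, beside 3.48% of the genes it tested. The fit of 24 libraries also called these 3, where 591 of 24631 genes rose in PRAD and 407 fell.

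Within each replicate number the direction in PRAD was uniform for DUSP4, DUSP5, SPRY4, ETV5 and PHLDA1, and also for SPRED1 with a smaller change. ETV5 was higher with Ocoxin in 3 of 3 numbers, at 1.53, 1.49 and 0.328 CPM in control cells against 4.81, 2.25 and 1.44 CPM. DUSP4 was lower in 3 of 3, at 93.1, 129 and 155 CPM against 82.7, 103 and 141 CPM. DUSP4 was lowest in replicate 1 and highest in replicate 3 of both groups, and its SE without the block was 0.22 beside a log2 fold change of -0.21. With the number as a block, DUSP5 (1.33 ± 0.16, adjusted p = 0.00846) and ETV5 (1.33 ± 0.30, adjusted p = 0.0462) were called as higher. SPRY4 (-0.95 ± 0.14, adjusted p = 0.0135), PHLDA1 (-1.07 ± 0.13, adjusted p = 0.00796) and DUSP4 (-0.21 ± 0.048, adjusted p = 0.0442) were called as lower, so 5 of 8 genes were called beside 8.50% of all genes. The remaining 3 genes, DUSP6, SPRY2 and SPRED1, had log2 fold changes between -0.08 and 0.09 and were called in neither fit.

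**Figure D4:**
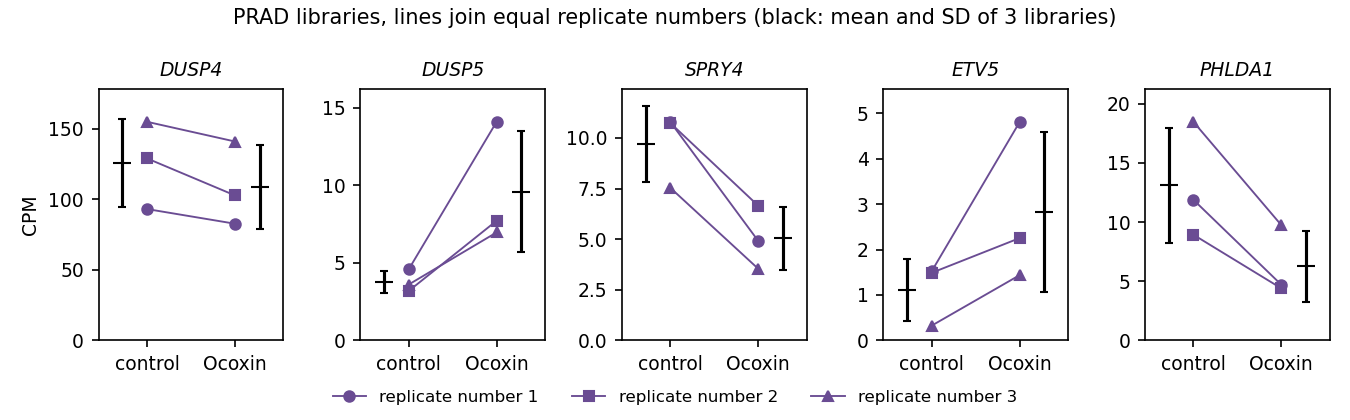
CPM in the 6 PRAD libraries of the 5 genes that were called with the replicate number as a block; lines join a control and a treated library of equal number, and the mean and SD of 3 libraries are in black. All 3 lines climb for DUSP5 and ETV5 and all 3 descend for DUSP4, SPRY4 and PHLDA1.

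COAD. No gene passed the test, with mean control levels from 2.36 RPKM for DUSP5 to 78.9 RPKM for PHLDA1. At an unadjusted p under 0.05, 3 of 10 genes were called by edgeR beside 16% of all genes, and DESeq2 called 0 of 10 at an adjusted p under 0.05 beside 3.54% of all genes it tested. DUSP5 stood at 6.90, 6.89 and 6.65 CPM in control cells and at 9.10, 9.25 and 8.23 CPM with Ocoxin, without overlap (0.38 ± 0.11, adjusted p = 0.0800). DUSP4 stood at 114, 124 and 117 CPM against 130, 131 and 130 CPM, also without overlap (0.13 ± 0.050, adjusted p = 0.170). SPRY4, at 45.1 ± 3.84 CPM in control cells and 40.4 ± 1.95 CPM with Ocoxin, was the third (-0.16 ± 0.071, adjusted p = 0.272). All log2 fold changes of the other 7 genes lay between -0.13 and 0.06, with SEs of 0.045 to 0.065. COAD was not taken as paired by replicate number. With that number as a block DUSP4 (adjusted p = 0.0196) and DUSP5 (adjusted p = 0.0177) were called as higher. Of all 17659 genes, 865 rose and 1060 fell in that fit.

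Whether the response itself differed between cell lines was tested as an interaction for the 6 pairs of lines, each fitted on its 12 libraries. The dilutions differ in every pair other than COAD and TNBC, so line and dilution cannot be told apart in the other 5 pairs. Pairs with PRAD also differ in counting options and depth, which cannot be told apart from the line either. PAAD stood out from COAD in 5 of 10 genes, beside 3.70% of all genes. The response in COAD was lower than in PAAD by 0.51 ± 0.072 for DUSP4 (the log2 difference was -0.51, adjusted p = 6.79e-05). The same difference was -0.85 ± 0.13 for SPRY4, -0.67 ± 0.084 for ETV4, -0.70 ± 0.097 for ETV5 and -0.46 ± 0.098 for FOSL1. In the fit of 24 libraries DUSP4 (adjusted p = 0.209) and ETV5 (adjusted p = 0.173) lost these calls. For DUSP5 the responses of COAD and PAAD differed by 0.01 ± 0.10 (adjusted p = 1.00), so its call in PAAD alone is not shown to be particular to that line.

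PAAD and TNBC differed in 6 of 10 genes, beside 4.93% of all genes, and the response was higher in PAAD for each. The difference was 1.36 ± 0.36 for SPRY4, 1.06 ± 0.19 for FOSL1, 0.88 ± 0.15 for DUSP4, 0.67 ± 0.11 for DUSP5, 0.67 ± 0.14 for ETV4 and 0.49 ± 0.10 for SPRY2 (log2, SE). The call of SPRY4, with few counts in TNBC, held in 8 of the 12 fits that left out a library. It was lost without TNBC control 3 (0.94, adjusted p = 0.182) or without any of the 3 TNBC Ocoxin libraries, while the other 5 calls held in all 12. In the fit of 24 libraries the call of DUSP4 was lost (adjusted p = 0.194). FOSL1 and SPRY2 were thus called as higher in PAAD and lower in TNBC. Of the 6 fits without a library, the call of SPRY2 held in 2 in PAAD and 2 in TNBC. That of FOSL1 held in 6 in PAAD and 3 in TNBC. For ETV5 the difference of 0.89 ± 0.43 did not pass the test (adjusted p = 0.311), but with the replicate number as a block ETV5 was called (0.90 ± 0.19, adjusted p = 7.46e-04), which makes 7 of 10 beside 15% of all genes. COAD and TNBC, the pair with equal dilution, differed in 3 of 10 genes, beside 10.5% of all genes. The difference was 0.67 ± 0.14 for DUSP5 (adjusted p = 0.00323), 0.58 ± 0.18 for FOSL1 (adjusted p = 0.0466) and -0.24 ± 0.076 for PHLDA1 (adjusted p = 0.0489). The calls of FOSL1 and PHLDA1 held in 2 and 4 of the 12 fits that left out a library, and DESeq2 did not call PHLDA1.

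The pairs with PRAD gave fewer calls in the fits without the replicate block. ETV4 and FOSL1, too low to be tested in PRAD alone, passed the filter of these fits through the other line, so calls are counted over the 8 genes tested in both lines. SPRY4 differed between PAAD and PRAD by 1.67 ± 0.25 (adjusted p = 0.00134), the 1 gene of 8 called beside 2.90% of all genes. With the replicate block DUSP4, DUSP5 and PHLDA1 were called too, 4 of 8 beside 8.42%. DUSP5 differed between PRAD and TNBC by 1.62 ± 0.31 (adjusted p = 0.0101), again 1 of 8 beside 4.75%. With the block ETV5 and PHLDA1 joined it, 3 of 8 beside 10.8%. Between COAD and PRAD edgeR called 0 of 8, beside 0.729% of all genes. At an unadjusted p under 0.05 it called 4 of 8 beside 11.8%, and DESeq2 called SPRY4 beside 1.82%. With the block DUSP4, DUSP5, SPRY4, ETV5 and PHLDA1 were called for COAD and PRAD, 5 of 8 beside 637 of 20582 genes.

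The other genes of the pathway were read from 6 lists with 67 genes in all, from receptors to immediate early factors. In PAAD 9 of the 64 tested rose and 4 fell, beside 4.72% and 3.62% of all genes. In TNBC 5 of 63 rose and 14 fell, beside 9.65% and 11.3%. In COAD 1 of 60 rose and 1 fell, beside 1.47% and 1.09%, and in PRAD 2 of 57 rose and 1 fell, beside 2.40% and 0.580%. With the replicate block 22 of the 64 were called in PAAD, 10 of 57 in PRAD and 30 of 63 in TNBC, where 23.1%, 8.50% and 33.9% of all genes were. Of the 30 changes named below (MYC in TNBC not counted), 13 were called in each of the 6 fits that left out a library.

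**Figure D5:**
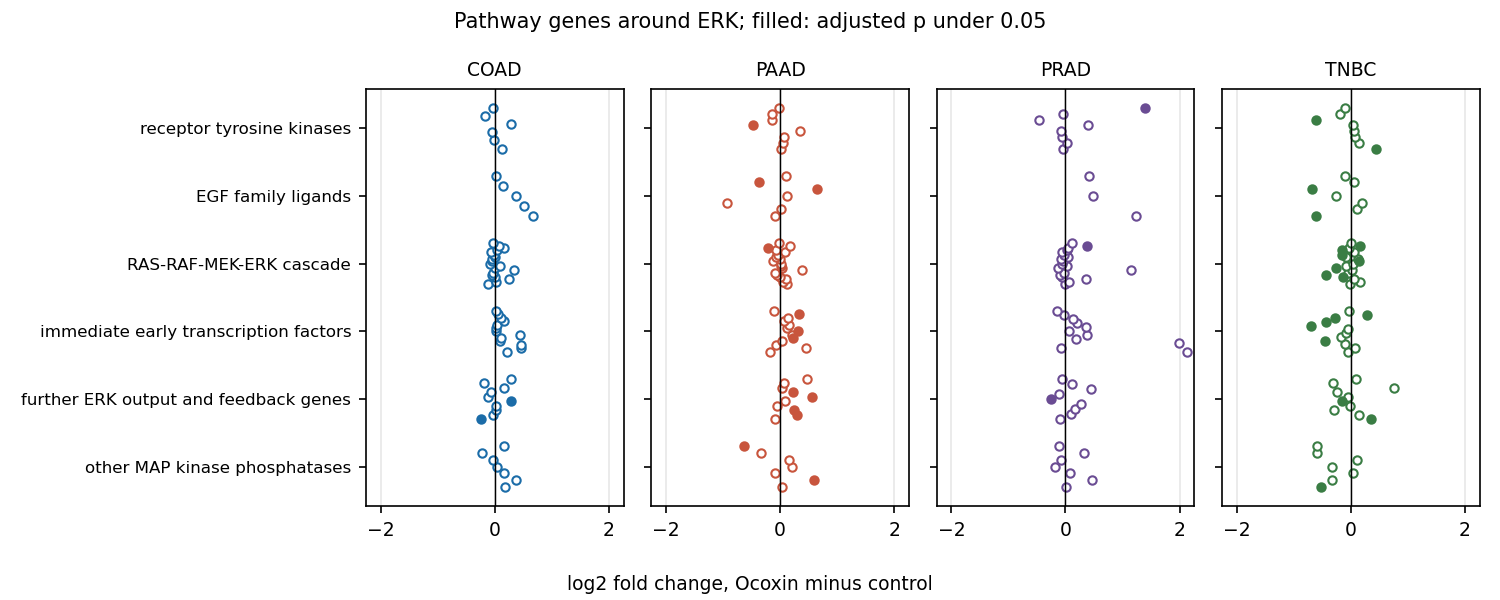
Log2 fold change of each tested gene of the 6 pathway lists, Ocoxin minus control, in the 4 cell lines; filled points have an adjusted p under 0.05. The 13 filled points of PAAD lie mostly right of 0 and the 19 of TNBC mostly left, while COAD has 2 and PRAD 3.

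Upstream of RAS in PAAD, HBEGF, an EGF receptor ligand, rose from 109 ± 2.27 to 172 ± 5.64 CPM (0.65 ± 0.055, adjusted p = 1.86e-06). NRG1, a ligand of ERBB3 and ERBB4, fell (-0.37 ± 0.074), as did the receptor FGFR2 (-0.47 ± 0.063). In the RAS-RAF-MEK-ERK cascade 1 of 19 genes was called in PAAD, the adaptor SHC1, which fell (-0.22 ± 0.062, adjusted p = 0.0393) and kept its call in 1 of 6 fits without a library. Downstream, 3 of 13 immediate early factors rose, MYC (0.32 ± 0.068), FOSL2 (0.31 ± 0.054) and FOS (0.24 ± 0.067), and 4 of 10 further output and feedback genes rose, among them ETV1 (0.55 ± 0.12), the third factor of the PEA3 group, CIC (0.30 ± 0.069), the repressor of those ETS genes, and EPHA2 (0.25 ± 0.063). FOS held in 2 of 6 such fits, EPHA2 in 3, MYC and CIC in 4 and ETV1 in 5. Of 7 other MAP kinase phosphatases, DUSP10, which acts on JNK and p38, rose (0.59 ± 0.061) and DUSP9, which acts on ERK, fell (-0.63 ± 0.13).

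In TNBC the calls of these lists lay mostly below 0. JUN (-0.70 ± 0.092), FOS (-0.45 ± 0.063) and JUNB (-0.43 ± 0.058), subunits of AP-1 like FOSL1, were among 4 of 12 immediate early factors that fell. MYC was the 1 that rose (0.29 ± 0.045, adjusted p = 9.22e-04), as it did in PAAD. The EGF receptor ligands EREG (-0.68 ± 0.18) and AREG (-0.61 ± 0.11) fell, and EGFR itself rose from 500.0 ± 36.6 to 675 ± 28.3 CPM (0.43 ± 0.051, adjusted p = 2.05e-04). Of 19 cascade genes 5 fell, among them HRAS (-0.43 ± 0.11) and MAP2K1 (-0.26 ± 0.039), which encodes the kinase MEK1, and 2 rose, among them SOS1 (0.17 ± 0.047). CCND1, the cyclin D1 gene, rose (0.36 ± 0.063), while ERRFI1, an inhibitor of the EGF receptor (-0.16 ± 0.045), DUSP1 (-0.53 ± 0.14) and FGFR3 (-0.61 ± 0.19) fell. FGFR3 held in 1 of 6 fits without a library, SOS1 and ERRFI1 in 2, DUSP1 in 3, EREG in 4 and HRAS in 5.

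In COAD the directions of 2 genes were the opposite, ERRFI1 rising (0.28 ± 0.070, adjusted p = 0.0322) and CCND1 falling (-0.24 ± 0.045, adjusted p = 0.00585), called in 3 and 4 of 6 fits without a library. The difference from TNBC was not tested for these 2 genes. In PRAD the receptor MET rose from 2.16 ± 0.611 to 5.73 ± 0.936 CPM (1.40 ± 0.23, adjusted p = 0.0296), SOS1 rose (0.38 ± 0.057) and ETV1 fell (-0.25 ± 0.044). These calls were kept in 2, 2 and 1 of 6 such fits.

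Likeness was measured as Pearson's r of log2 CPM, less the mean of the controls of the same line, over the 24 libraries among the 13340 or 13341 genes tested in all 4 lines. The points share library depth and replicate number, and r is a description. For DUSP6 the highest r was 0.70 for the genes ENSG00000226380 and ENSG00000258938, then RAET1K (0.68), TMEM158 (0.66) and TIMM17B (0.65), and with 8 to 59 counts of DUSP6 in each PRAD and TNBC library these are sparse counts. For FOSL1 the 5 most alike were SLC35C1 (0.83), GPRIN1 (0.82), GNB5 (0.81), BCL10 (0.81) and EPHA2 (0.81), the last of which is on the list of further ERK output genes. FOSL1 has 6 to 14 counts in each PRAD library. Among the 10 genes themselves r ranged from -0.78 for DUSP5 with PHLDA1 to 0.84 for DUSP4 with SPRY2. DUSP5 and PHLDA1 both had their largest log2 fold change in PRAD (1.34 and -1.06). They held 30 to 132 and 41 to 169 counts per library there, and how far that line sets their r was not tested.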

How the data were processed

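The authors prepared stranded mRNA libraries. Reads were trimmed (fastp), mapped to hg38 (STAR), cleared of PCR duplicates (picard) and counted as primary alignments on exons (featureCounts, version 2.0.3 per the file headers). The deposited values are raw counts of reads per gene in 2 tables. The PRAD table was counted without the paired-end option. The other was counted with it but not by fragment, so a fragment mostly gives 2 counts there and counting error is understated. Neither run used strand, so antisense reads cannot be told apart.

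Of 58051 identifiers, 56948 matched a symbol. Counts were analysed in R 4.3.3 with edgeR 4.0.16 (filterByExpr, TMM, robust quasi-likelihood F-test, two-sided), each line alone, with p-values adjusted by Benjamini-Hochberg across the whole table and a threshold of 0.05. SE is the absolute log2 fold change over the root of F. Scripts were tested on simulated data. The study's methods name DESeq2, here version 1.42.0 as an alternative. Others were another scaling, no filter, 24 libraries in 1 fit, removal of length and GC trends, counts halved, a correction for reads with the same start, a replicate block and leaving out each library.

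The members and gene lists were chosen with earlier results of these data known. Named were all 10 genes, up to 3 called genes per pathway list and line with a mean CPM of at least 1 and the largest change, and the 5 genes most like DUSP6 and FOSL1. MYC in TNBC was named in addition.

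Whether equal replicate numbers pair libraries was checked by the correlation of deviations from group means, over genes with a mean CPM of at least 10. It was 0.314 to 0.615 in PAAD, 0.176 to 0.605 in PRAD and 0.285 to 0.629 in TNBC, all above 0.1, and these were taken as paired. The main fits did not use this pairing, and fits with the block are given beside them. In TNBC the number is a weak guide, since replicate 2 correlated more highly with another number (0.346) than with its own (0.320), and replicate 1 nearly so (0.252 against 0.285). The same-number correlation was 0.0813 to 0.503 in COAD, which was not taken as paired. Over all genes tested the lowest values of PAAD, PRAD and TNBC were 0.0235, 0.0912 and 0.0620, so the pairing rests on expressed genes and not on the labels.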

Additional observations from a re-analysis of the deposited data

Results flagged for a closer look

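The response to Ocoxin differed between 2 cell lines by the interaction test, at an adjusted p under 0.05 with edgeR's quasi-likelihood test, for 16 pairings of gene and lines, given here as the log2 fold change of the first line minus that of the second. COAD minus PAAD was -0.51 for DUSP4, -0.85 for SPRY4, -0.67 for ETV4, -0.70 for ETV5 and -0.46 for FOSL1. COAD minus TNBC was 0.67 for DUSP5, -0.24 for PHLDA1 and 0.58 for FOSL1. PAAD minus PRAD was 1.67 for SPRY4. PAAD minus TNBC was 0.88 for DUSP4, 0.67 for DUSP5, 0.49 for SPRY2, 1.36 for SPRY4, 0.67 for ETV4 and 1.06 for FOSL1. PRAD minus TNBC was 1.62 for DUSP5. Groups of 3 libraries are too small for a test of single outlying libraries.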

How the results depend on the processing

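All 30 control levels between COAD, PAAD and TNBC kept direction and call in 360 refits, and PAAD kept 6 or 7 members. Over the 38 member responses, 463 of 530 refits gave the same call, 12 lost it, 35 gained it and 20 changed sign. Members called with the replicate block were 2 in COAD, 5 in PRAD and 4 in TNBC, and between lines 5 for COAD and PRAD, 4 for PAAD and PRAD and 3 for PRAD and TNBC. Pathway genes called with the block were 30 in TNBC, 22 in PAAD, 10 in PRAD and 8 in COAD. Of all genes the block called 33.9% in TNBC, 23.1% in PAAD and 8.50% in PRAD. In COAD 865 of 17659 genes rose with the block and 1060 fell. Between lines the block called 637 of 20582 genes for COAD and PRAD, 8.42% for PAAD and PRAD and 10.8% for PRAD and TNBC. With length and GC trends removed, PRAD gave 2 members and 12 pathway genes, where 690 of 17070 genes rose and 1785 fell. With trends removed and the block, members called were 5 in COAD and 5 in PRAD. Pathway genes called were 31 in TNBC, 29 in PRAD, 22 in PAAD and 9 in COAD. Of all genes, 856 of 17659 rose and 1711 fell in COAD, and 1507 of 17070 rose and 3939 fell in PRAD. In TNBC 2309 of 17352 rose and 3411 fell, and in PAAD 1552 of 17280 rose and 1832 fell. In PRAD, DESeq2 called 3 members, no filter 2, and the fit of 24 libraries 3 members and 9 pathway genes. DESeq2 called 3.48% of the genes it tested there. With no filter 690 of 33271 genes rose and 402 fell, and in the fit of 24 libraries 591 of 24631 rose and 407 fell. Between lines, the fit of 24 libraries called 3 for COAD and PAAD, 4 for PAAD and PRAD and 2 for PRAD and TNBC. Of 24631 genes it called 848, 811 and 885 for these pairs. Its member counts are over all 10 genes, with ETV4 and FOSL1 included in the pairs with PRAD. DESeq2 called 1 for COAD and PRAD, beside 1.82% of all genes. The block moved no other count by over 1.5 times, but it added ETV5 for PAAD and TNBC, SPRY2 for COAD and TNBC, and SPRY2 and PHLDA1 for COAD and PAAD.

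With each library left out, TNBC members ranged from 0 (without control 1 or Ocoxin 2) over 1 (without control 2) to 2. Of all genes in TNBC, 1225 of 17779 rose and 1420 fell without control 1. Without Ocoxin 2, 1034 of 17759 rose and 1299 fell, where 1675 of 17352 and 1969 did with all libraries. Pathway genes ranged from 0 to 2 in COAD (1, 0 and 1 without control 1, control 2 and Ocoxin 2), 7 to 14 in PAAD (7 without Ocoxin 1 or 2), 0 to 5 in PRAD (5 without Ocoxin 3, 0 without control 2 or 3 or Ocoxin 1 or 2) and 11 to 21 in TNBC (12, 12 and 11 without control 1, Ocoxin 1 and Ocoxin 2). Of all genes in PRAD, 7 of 17480 rose and 0 fell without control 2, and 3 of 17386 and 0 without Ocoxin 2. Without control 3, 33 of 17528 rose and 4 fell, and without Ocoxin 1, 89 of 17369 and 11. Without Ocoxin 3, 315 of 17474 rose and 83 fell. In COAD 108 of 17974 rose and 30 fell without control 2, and in PAAD 351 of 17589 and 290 without Ocoxin 2. The low counts are therefore not shown to be particular to the pathway genes. Between lines, calls ranged from 0 to 1 for COAD and PRAD (1 without PRAD control 3 or Ocoxin 2), 1 to 3 for COAD and TNBC (1 without TNBC control 1 or any COAD library but control 3), 1 to 4 for PAAD and PRAD (2 without PRAD control 1 or 2, 4 without PRAD Ocoxin 3) and 1 to 2 for PRAD and TNBC (2 without PRAD control 2 or Ocoxin 3). Of all genes, 146 of 22756 were called for COAD and PRAD without PRAD control 3. For COAD and TNBC without COAD control 1, 1218 of 20762 were. Without PRAD Ocoxin 3, 625 of 23124 were called for PAAD and PRAD and 1133 of 23245 for PRAD and TNBC. Calls of the pairs with PRAD are counted here over all 10 genes. ETV4 and FOSL1 are thus included, although they were too low to be tested in PRAD alone.

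Sign changes were all in uncalled genes. Removal of trends, without and with the block, gave SPRY2 in COAD -0.0155 and -0.0149, SPRY2 in PRAD -0.0685 and -0.0672, and ETV4 in TNBC 0.0047 and 0.0084. SPRY2 in PRAD was -3.55e-04 with DESeq2, -0.0078 with no filter, -0.0170 with 24 libraries, and -0.16 and -0.14 without control 1 and Ocoxin 3. Over the fits without 1 library, values ranged from -0.30 to 0.26 for DUSP6, -0.16 to 0.15 for SPRY2 and -0.037 to 0.19 for SPRED1 in PRAD, and from -0.14 to 0.10 for ETV4 and -0.63 to 0.20 for ETV5 in TNBC. The cause was not tested for any of these. Counts of 4 to 14 per library left ETV4 and FOSL1 untested in PRAD, where libraries hold 9063968 to 9520969 counts.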
